A study of Mus musculus with 14 samples.

Results

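The genes described here are 10 transcripts that were scarce in CT26 tumors and scarcer still in tumors that responded to anti-PD-1: 1700048O20Rik, Ap3b2, Dach2, Ostn, Fam71f2, Wnt5b, Prl, Fam19a1, Taf7l and Magea8. They were chosen from earlier results of these same tumors, as genes lower in responders than in non-responders and than in control IgG tumors. They are 10 of the 53801 genes listed for each tumor, of which 27344 had a symbol and a count above 0 in any tumor. They are also 10 of the 16287 that passed the filter on low counts and were tested. Of the 467 genes called lower in responders than in both other groups, they are 10. Because responder tumors chose the genes, the values that set responders against the other groups are given for these 10 as a description, without a p-value, and whether a fit called one of the 10 is no support for its difference. Other genes were tested, and their adjusted p-values are given.

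CT26 is a mouse colorectal carcinoma line, here carrying a library of DNA barcodes and injected under the skin of the left and right flanks of syngeneic BALBc mice, and the tumors sequenced came from one or both flanks of a mouse. Per the study's methods, the hosts were 6 to 8 week old females and antibody was injected at 200 μg per dose from day 7, every 3 days, for 5 doses. The 14 tumors came from 11 mice: 5 tumors treated with control IgG from 4 mice (14L, 14R, 16R, 17R and 20R), 4 anti-PD-1 non-responder tumors from 3 mice (29L, 32R, 33L and 33R) and 5 anti-PD-1 responder tumors from 4 mice (24L, 26R, 30L, 30R and 35L). The number names the mouse and L or R the flank. Both anti-PD-1 groups received the same antibody, and they are told apart by the response written in the labels, not by treatment. The study's methods classed response by tumor size at the end of treatment, compared with control IgG tumors. Responder tumors were thus the smaller ones, and response and tumor size cannot be told apart here. Each library is bulk RNA of a whole tumor, so fewer cells of a kind and less RNA per cell cannot be told apart. Each library held 33237744 to 48481461 expected counts. The mean fragment length was 269.46 to 277.04 bases in responders, 277.49 to 287.83 in non-responders and 268.71 to 277.67 in control IgG tumors, so that responders and non-responders did not overlap in it.

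The genes belong to several tissues. Fam71f2 (now also called Garin1a), Taf7l and Magea8 are known from testis. Taf7l is a germ cell relative of TAF7, a subunit of the general transcription factor TFIID, and Magea8 belongs to the MAGE-A genes, which are silent in most adult tissues and come on in many cancers, hence the name cancer-testis antigens. Ap3b2 encodes the neuronal β subunit of the AP-3 adaptor, which sorts cargo into synaptic vesicles and lysosome-related organelles. Fam19a1 (Tafa1) encodes a small secreted protein of brain, and Prl encodes the pituitary hormone prolactin. Wnt5b is a secreted Wnt ligand, Dach2 a dachshund-type transcription cofactor that acts with EYA proteins and their homeobox partners, and Ostn encodes osteocrin (musclin), a peptide of muscle and bone that binds the natriuretic peptide clearance receptor. 1700048O20Rik is annotated as a long intergenic non-coding RNA.

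Promoter sequence was available for 9 of the 10 genes in the RefSeq table of build GRCm38.p6, as 12 promoters, and the 250 bases before each start were searched on both strands for the CCAAT box (spelled as its name), the TATA box (searched as TATAAA), the GC box (searched as GGGCGG) and the cAMP response element (searched as TGACGTCA). Of all 32851 promoters of that length, 33.8% held a CCAAT box, 12.4% a TATA box, 32.7% a GC box and 1.55% a cAMP response element. Of the 12, 3 held a CCAAT box, 3 a TATA box, 4 a GC box and none a cAMP response element. The number of CpG dinucleotides was 1 to 35, beside a median of 6 over all promoters, and 5 of the 12 were below that median. The 4 sequences that follow are shown to let promoters be compared. They belong to the gene with the largest log2 fold change by counts, a hormone gene and 2 X-linked testis genes. They are printed 5′ to 3′ on each gene's own strand, with the motifs in capitals. They lie at chr9:121937025-121937274 (plus strand), chr13:27057320-27057569 (plus), chrX:134476491-134476740 (minus) and chrX:154995851-154996100 (minus).
1700048O20Rik: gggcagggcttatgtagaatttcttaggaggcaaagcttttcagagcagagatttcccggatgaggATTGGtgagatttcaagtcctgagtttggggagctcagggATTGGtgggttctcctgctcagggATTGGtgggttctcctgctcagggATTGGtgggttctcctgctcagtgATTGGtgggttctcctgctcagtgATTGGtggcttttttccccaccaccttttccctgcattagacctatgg
Prl: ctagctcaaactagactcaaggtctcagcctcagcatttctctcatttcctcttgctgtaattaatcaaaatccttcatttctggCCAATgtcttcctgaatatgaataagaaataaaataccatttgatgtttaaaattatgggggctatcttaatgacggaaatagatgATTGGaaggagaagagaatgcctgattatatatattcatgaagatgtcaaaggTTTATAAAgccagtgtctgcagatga
Taf7l: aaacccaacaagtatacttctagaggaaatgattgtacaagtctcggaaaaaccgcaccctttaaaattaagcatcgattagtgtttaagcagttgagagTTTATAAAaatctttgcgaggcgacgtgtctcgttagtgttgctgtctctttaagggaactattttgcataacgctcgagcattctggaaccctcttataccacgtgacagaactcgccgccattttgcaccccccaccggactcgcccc
Magea8: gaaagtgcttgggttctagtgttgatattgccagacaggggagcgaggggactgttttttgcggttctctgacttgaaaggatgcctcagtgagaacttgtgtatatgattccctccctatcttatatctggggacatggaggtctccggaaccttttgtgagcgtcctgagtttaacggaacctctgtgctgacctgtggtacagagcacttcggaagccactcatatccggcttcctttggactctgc
The 1700048O20Rik sequence held CCAAT 6 times, each time as its reverse complement ATTGG, and the last 4 copies each began 24 bases after the one before. Only 19 of the 32851 promoters, or 0.0578%, held CCAAT at least 6 times. Its last 52 bases lie inside the start of the gene in the GENCODE annotation of mm10. Prl and Taf7l each held TATAAA in the overlapping run TTTATAAA, which reads as that motif on both strands, and Prl also held CCAAT on each strand. The Magea8 sequence held none of the 4 motifs. Taf7l had 14 CpG and Magea8 7, beside 1 each in Prl and 1700048O20Rik.

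1700048O20Rik (ENSMUSG00000043773, chr9:121937223-121947016) had the highest TPM of the 10 and the largest log2 fold change by counts. Expected counts, RSEM's estimate of the fragments from a gene, were 578, 669, 358, 336 and 511 in control IgG tumors 14L, 14R, 16R, 17R and 20R. They were 154, 551, 461 and 546 in non-responders 29L, 32R, 33L and 33R, and 31, 62, 34, 20 and 11.6 in responders 24L, 26R, 30L, 30R and 35L. Every responder was below every other tumor, and 29L was the lowest of the others. In TPM, which divides the counts by gene length and scales them to the same total in every tumor, responders ranged from 0.46 to 2.91, non-responders from 3.39 to 11.69 and control IgG tumors from 7.06 to 14.42. As CPM, counts scaled to the TMM-normalised size of each library, the means were 0.816 ± 0.609 (SD, n = 5) in responders, 11.7 ± 5.66 (n = 4) in non-responders and 12.0 ± 3.42 (n = 5) in control IgG tumors. The log2 fold change was −3.88 ± 0.50 (SE) for responders over non-responders and −3.91 ± 0.49 for responders over control IgG, so the responder mean was 6.82% of the control mean. It was the only one of the 10 with fractional expected counts, which RSEM gives when fragments match more than 1 gene, and the other 9 had whole counts in every tumor.

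**Figure D1:**
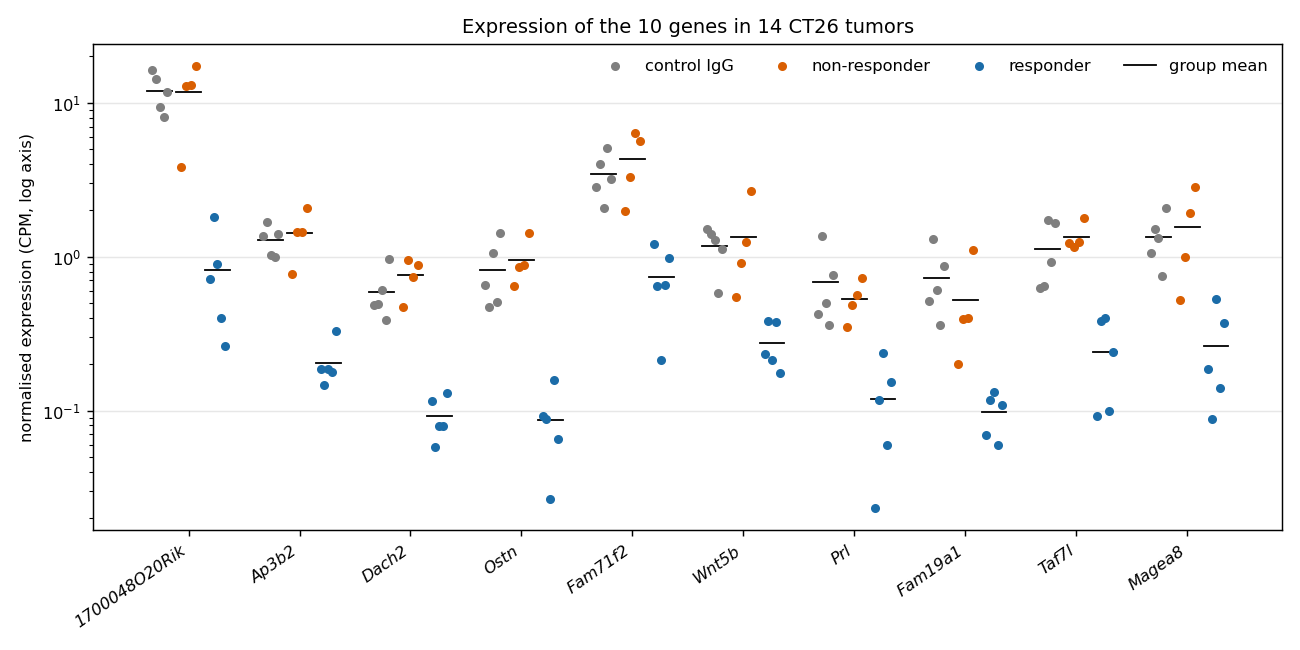
Normalised expression (CPM, log axis) of each of the 10 genes in every tumor, with points for tumors in control IgG (grey), non-responder (orange) and responder (blue) groups and bars for group means. Responder points lie below all others for 9 genes, and Magea8 is the exception, with responder 30L at 0.528 and non-responder 29L at 0.523 CPM.

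Among the testis genes, Fam71f2 (chr6:29279593-29290680) had the highest TPM. It had 100, 188, 79, 210 and 140 expected counts in the control IgG tumors, in the order given above, 80, 142, 224 and 178 in non-responders and 52, 22, 8, 33 and 45 in responders. TPM was 0.42 to 1.7 in responders and 2.7 to 10.96 in the other tumors, without overlap. Its log2 fold change was −2.53 ± 0.43 (SE) over non-responders and −2.21 ± 0.41 over control IgG. Fam71f1, the neighboring gene of the same family, had 3.42 ± 0.379 CPM (SD, n = 5) in responders, 2.93 ± 0.105 (n = 4) in non-responders and 2.96 ± 0.508 (n = 5) in control IgG tumors, and neither responder comparison called it (adjusted p = 0.335 and 0.357). Fam71e1, the third tested gene of the family, had −0.09 ± 0.35 over control IgG and was not called either (adjusted p = 0.903).

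Taf7l (chrX:134460118-134476490) had 22, 30, 66, 38 and 72 counts in control IgG tumors, 49, 50, 44 and 56 in non-responders and 4, 13, 15, 5 and 11 in responders. In TPM, responders had 0.07 to 0.29, while the other tumors spanned 0.41 to 1.32. Its log2 fold change was −2.50 ± 0.45 over non-responders and −2.22 ± 0.43 over control IgG. Of the other 17 tested TFIID subunits and paralogs, Taf9 (−0.62 ± 0.17, adjusted p = 0.035) and Tbpl1 (−0.37 ± 0.10, adjusted p = 0.0344) were called lower in responders than in non-responders, and none was called against control IgG.

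Magea8 (chrX:154985775-154995850) had 37, 71, 50, 31 and 91 counts in control IgG tumors, 21, 43, 68 and 89 in non-responders and 8, 3, 20, 7 and 17 in responders. It was the single gene of the 10 whose groups overlapped in CPM. Responder 30L (20 counts, 0.528 CPM) lay just above non-responder 29L (21 counts, 0.523 CPM). Mean CPM was 0.262 ± 0.183 (SD, n = 5) in responders, 1.57 ± 1.02 (n = 4) in non-responders and 1.34 ± 0.503 (n = 5) in control IgG tumors, with log2 fold changes of −2.56 ± 0.53 and −2.35 ± 0.51. Of 21 MAGE genes matched in the tables, 8 had no count in any tumor and 5 were tested. Magea8 was the only MAGE-A gene of the list among these 5. Among the other tested members, Maged1, a broadly expressed relative, was lower in responders than in control IgG tumors (−0.24 ± 0.07, adjusted p = 0.0428), and Maged2, Magee1 and Mageh1 passed in neither responder comparison. MAGE-A genes are near copies of each other, so a share of Magea8 fragments could belong to a relative although its counts were whole.

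Of the brain and pituitary genes, Ap3b2 (chr7:81460399-81493925) came first in size of the difference to non-responders. Its counts were 48, 79, 39, 41 and 61 in control IgG tumors, 31, 62, 51 and 65 in non-responders and 8, 5, 7, 9 and 15 in responders. TPM ran from 0.09 to 0.31 in responders and from 0.73 to 1.5 in the rest, so the lowest of the others was above the highest responder. Its log2 fold change was −2.77 ± 0.31 over non-responders and −2.63 ± 0.30 over control IgG. The other 6 AP-3 subunits were each expressed at 12.6 CPM or more in every group mean, and of these only Ap3m2 was called, as higher in responders than in non-responders (0.40 ± 0.09, adjusted p = 0.0154) and than in control IgG tumors (0.27 ± 0.08, adjusted p = 0.0433). Ap3b1, the ubiquitous β subunit, had log2 fold changes of 0.09 ± 0.09 and 0.01 ± 0.08 (adjusted p = 0.529 and 0.947).

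Fam19a1 (chr6:96113154-96657198) had 18, 61, 23, 15 and 38 counts in control IgG tumors, 8, 17, 14 and 35 in non-responders and 3, 4, 5, 3 and 5 in responders. Its responder values had the narrowest span of the 10 in counts, from 3 to 5, and lay under all others, of which 29L was lowest at 8. In TPM the gap was small, from 0.08 in the highest responder to 0.09 in 29L. Its log2 fold change was −2.40 ± 0.53 over non-responders and −2.90 ± 0.50 over control IgG. Over non-responders it was −1.73 without 33R, and it then passed the threshold no longer. Fam19a2 and Fam19a3, the other tested genes of the family, passed in neither comparison, with log2 fold changes over non-responders of −0.53 ± 0.31 and 1.04 ± 0.32 (adjusted p = 0.281 and 0.0502).

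Prl (chr13:27057570-27065205) had 15, 64, 19, 15 and 33 counts in control IgG tumors, 14, 21, 20 and 23 in non-responders and 1, 4, 9, 3 and 7 in responders. In TPM the responders spanned 0.05 to 0.47 and the other tumors 0.66 to 2.37, without overlap. Control IgG tumor 14R stood above the rest of its group, and its partner from the other flank of that mouse shared the lowest count with 17R. The log2 fold change was −2.17 ± 0.53 over non-responders and −2.54 ± 0.50 over control IgG. Over non-responders it was −2.21 without 32R, −1.97 without 33R, −1.90 without 24L and −1.99 without 30R, and none of these 4 fits called it. The prolactin receptor gene Prlr had log2 fold changes of 0.74 ± 0.73 and −0.61 ± 0.67 (adjusted p = 0.541 and 0.597), and Ghr, the growth hormone receptor gene, was lower in responders than in control IgG tumors (−0.42 ± 0.12, adjusted p = 0.027).

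Of the signaling and developmental genes, Wnt5b (chr6:119432531-119544347) had 53, 66, 49, 24 and 49 counts in control IgG tumors, 22, 39, 44 and 84 in non-responders and 10, 13, 8, 19 and 8 in responders. Its lowest other tumors, 29L at 0.548 and 17R at 0.579 CPM, were above its highest responder at 0.379 CPM. The log2 fold change was −2.27 ± 0.43 over non-responders and −2.09 ± 0.42 over control IgG. Over non-responders it was −1.68 without 33R. Fbxl14 lies inside the body of Wnt5b on the other strand, and whether the counting used strand is not given in the sources used here. Fbxl14 itself was not called (0.07 ± 0.08 over non-responders, adjusted p = 0.638).

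Of the other 11 Wnt ligand genes tested, Wnt10a was called lower in responders than in non-responders (−0.32 ± 0.08, adjusted p = 0.0238) and Wnt2b higher than in control IgG tumors (0.99 ± 0.25, adjusted p = 0.0208). Wnt5a, the close relative of Wnt5b, had −0.29 ± 0.28 and −0.15 ± 0.26 (adjusted p = 0.527 and 0.751). Among 14 tested Wnt receptor genes, Ror1 and Ror2, which bind WNT5 ligands, were higher in responders than in control IgG tumors (1.15 ± 0.32 and 1.03 ± 0.24, adjusted p = 0.0296 and 0.0123) and Fzd6 was lower (−0.59 ± 0.12, adjusted p = 0.00647), and none was called against non-responders. Of 9 tested target genes of the β-catenin pathway, Tcf7, also a T cell transcription factor, was higher in both comparisons (0.97 ± 0.16 and 0.87 ± 0.15, adjusted p = 0.00666 and 0.00245) and Lef1 was lower against control IgG (−0.62 ± 0.18, adjusted p = 0.033).

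Dach2 (chrX:113297510-113836386) had 17, 23, 23, 16 and 42 counts in control IgG tumors, 19, 41, 26 and 28 in non-responders and 5, 2, 3, 4 and 6 in responders. No responder came above 0.131 CPM and no other tumor lay below 0.386. In TPM, responder 35L and control IgG tumor 17R were listed at the same value, 0.18. The log2 fold change was −2.98 ± 0.35 over non-responders and −2.60 ± 0.34 over control IgG. Its paralog Dach1 had 0.22 ± 0.27 and 0.27 ± 0.25 (adjusted p = 0.636 and 0.536), whereas Eya1, the gene of an EYA partner, was lower in responders in both comparisons (−0.95 ± 0.22 and −1.03 ± 0.21, adjusted p = 0.019 and 0.00624). Of the 8 other tested genes of this family list, Eya2 was higher than in non-responders (0.90 ± 0.27, adjusted p = 0.0498), and against control IgG Six4 was lower (−0.62 ± 0.14, adjusted p = 0.011) and Six5 higher (0.41 ± 0.09, adjusted p = 0.00945).

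Ostn (chr16:27307489-27351212) had 23, 22, 40, 21 and 62 counts in control IgG tumors, 26, 37, 31 and 45 in non-responders and 4, 3, 1, 8 and 3 in responders. The 5 responders summed to 19 counts, and the highest of them was below the lowest other tumor. Its log2 fold change was −3.38 ± 0.45 over non-responders and −3.17 ± 0.44 over control IgG, the second largest of the 10 in both. Npr3, the clearance receptor that osteocrin binds, had 1.03 ± 0.49 and 0.15 ± 0.44 (adjusted p = 0.189 and 0.865). Npr2, the receptor for C-type natriuretic peptide, was lower in responders in both comparisons (−0.55 ± 0.14 and −0.89 ± 0.13, adjusted p = 0.0254 and 0.00115), and no other gene among the 4 tested with Ostn in that list was called.

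Across the 10 genes, the median log2 fold change was −2.55 for responders over non-responders and −2.57 for responders over control IgG, beside 0.01 and −0.01 over all genes tested. All 10 were among the genes called lower in each comparison, as their choice required, at a background of 4.82% of genes called lower and 5.08% called higher than in non-responders, 5.3% lower and 7.88% higher than in control IgG tumors, and 2.87% lower than in both. For 9 of the 10, every responder was below every other tumor in CPM. Their choice favored such separation, so it is a description and no support. The separation held for 3.49% of all genes tested and for 0.761% of the 3022 tested genes with a mean log2 CPM under 0. In TPM it held for 8 of the 10. On the log2(TPM + 1) scale, which understates the change of low genes, the 10 estimates over non-responders lay between −2.13 and −0.18. That scale moved the median of all genes to 0.17 over non-responders and 0.09 over control IgG and split the calls as 1969 higher and 191 lower, and 1522 higher and 305 lower, where the counts gave 827 and 785, and 1284 and 863. The mean log2 CPM was under 0 for 8 of the 10, and its median was −0.49, beside 4.22 over all genes. Ranked by the smaller of the 2 fold changes, the 10 genes stood between the fifth and the 22nd place of the 467. Wnt5b was the last of them, and Csmd3 (−1.96 and −2.22) was the next gene outside. The 22 genes below −2 in both comparisons also held the hemoglobin genes Hbb-bs, Hbb-bt and Hba-a1. The rest of the 22 were low genes too, with a mean log2 CPM under 0. Of these, Gm3486 (−6.23 and −7.38), Hmgb1-ps8, Gm26740 and Vmn1r139 ranked above all of the 10. Rex2, Zfp981, Kank4os, Gm27016 and Atf7ip2 stood among them, so a large drop at a low level was not particular to the 10.

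The extreme tumor within the responder group differed from gene to gene. The highest responder was 30L for 4 genes, 26R and 35L for 2 each, and 24L and 30R for 1 each, and the lowest was 26R for 3 genes, 24L, 30L and 35L for 2 each and 30R for 1. No gene was at 0 counts in any tumor. In the other groups, non-responder 29L was the lowest tumor for 7 of the 10 genes and 33R the highest for 6.

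**Figure D2:**
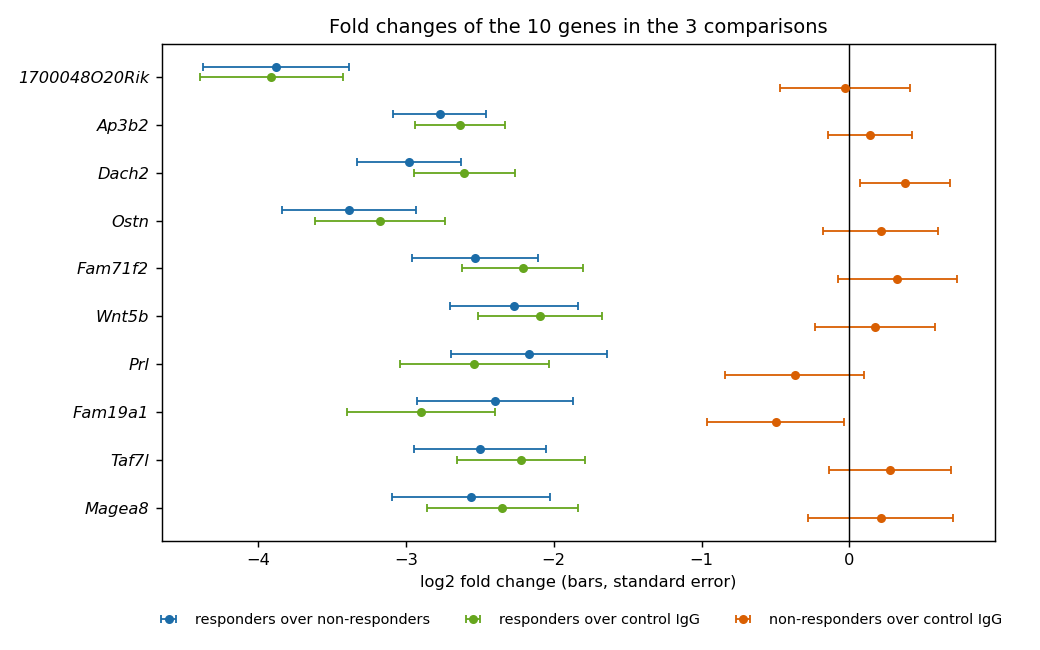
Log2 fold change of each of the 10 genes in the 3 comparisons, with bars for the standard error of the fit. The comparisons with responders lie between −3.91 and −2.09, and those of non-responders over control IgG between −0.50 and 0.38, with standard errors from 0.28 to 0.49.

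Non-responders against control IgG tumors sets tumors given anti-PD-1 that did not respond beside tumors given control IgG. The choice of genes had used the values of each of these groups against responders, so the comparison is not independent of it. None of the 10 was called: log2 fold changes ran from −0.50 ± 0.46 for Fam19a1 to 0.38 ± 0.31 for Dach2, 7 positive and 3 negative, with a median of 0.19 beside 0.01 over all genes. The edgeR test called 0 of 16287 genes here (0.0%), with 758 at an unadjusted p under 0.05, and DESeq2 called 18, none of them among the 10. The standard errors ran from 0.28 for Ap3b2 to 0.49 for Magea8, and a p above the threshold does not show that the groups were alike.

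Most pairs of the 10 genes were positively correlated in tumors outside the responder group. The values of these tumors had also entered the choice of the genes, so the correlations and their p-values are not independent of it. Over the 9 control IgG and non-responder tumors, from 7 mice, the 45 pairs of genes had a median Pearson's r of 0.54 in log2 CPM, with a range of −0.15 to 0.91, and 41 of 45 (91.1%) were above 0. Over all pairs of tested genes the median was 0.0 and 49.9% were above 0, and over pairs of the 3022 low genes the median was 0.03 and 52.7% were above 0. Of the 45 pairs, 10 were at or above 0.778, the 95th percentile of all pairs. The strongest pair was 1700048O20Rik with Ap3b2 (r = 0.91, exact two-sided permutation p = 0.000361, adjusted p = 0.0162, Spearman's rho = 0.83, exact p = 0.00827, adjusted 0.0744, and r = 0.82 without the 2 tumors farthest from the median). Prl with Fam19a1 followed (r = 0.88, exact permutation p = 0.00118, adjusted p = 0.0265, rho = 0.90, exact p = 0.00203, adjusted 0.0676, and r = 0.83 without the 2 farthest). Ostn was closest to Taf7l (r = 0.86) and to Dach2 (r = 0.84). Taf7l had the lowest median r with the other genes, at 0.03, and Ap3b2 the highest, at 0.72.

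By the exact permutation test, 16 of the 45 pairs had p under 0.05 and 8 after adjustment over the 45 (lowest adjusted p = 0.0162), while by Spearman's rho 11 did before and 0 after adjustment (lowest 0.0676). Without the 2 tumors farthest from the median of the first gene, 37 of 45 pairs were above 0 with a median r of 0.52, and 3 of the 8 adjusted pairs fell by over 0.2. Taken as deviations from the group means, 17 pairs had an exact p under 0.05. The median r was between 0.43 and 0.70 when any 1 tumor was left out, but the count of adjusted pairs rested on single tumors: it was 5 without 14L, 15 without 14R, 0 without 17R or 29L, 1 without 20R, 3 without 33L and 2 without 33R, and 0 with 1 tumor per mouse. As a mean of z-scores over the 10 genes, 33R was highest (1.22), then 20R (0.60), 33L (0.34), 14R (0.25), 32R (−0.00), 16R (−0.07), 14L (−0.29), 17R (−0.79) and 29L (−1.25). Both groups thus held tumors on either side of 0, and the extremes were non-responders.

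**Figure D3:**
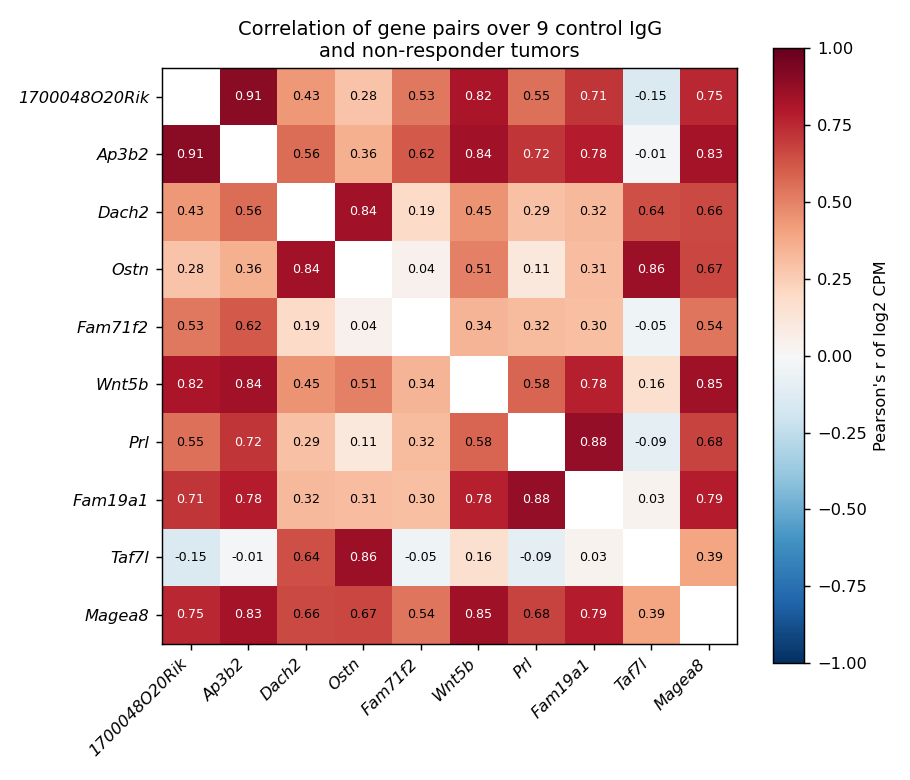
Pearson's r of log2 CPM for each pair of the 10 genes over the 9 control IgG and non-responder tumors, with the color scale from −1 to 1. 1700048O20Rik, Ap3b2, Wnt5b, Fam19a1 and Magea8 pair at 0.71 or more with each other, and Taf7l is near or below 0 with 5 of the genes.

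Mice with a tumor in each flank gave another view of the spread. In control mouse 14, Prl and Fam19a1 were higher in the right tumor by 1.57 and 1.27 on the log2 scale, and the other 8 genes differed by 0.51 or less. In non-responder mouse 33 the right tumor was higher for 9 of the 10 genes. In responder mouse 30, where counts were lowest, 6 of the 10 genes differed by over 1 on the log2 scale, and 4 of the 10 were higher in the right tumor.

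Outside the 10, the genes whose level followed their mean z-score most closely over the 9 tumors were Rgs18 (r = 0.94), Col10a1 (0.94), Zfp961 (0.93), Baalc (0.93), Trip13 (0.92), Srsf6, Ei24, Gm32857, Eldr and Fndc4 (0.92 each), of 13254 genes with a mean log2 CPM of at least 0. Col10a1, a collagen of hypertrophic cartilage, was lower in responders than in non-responders (−1.94, adjusted p = 0.0308), as were Baalc (−0.61, adjusted p = 0.035) and the lincRNA Gm32857 (−0.86, adjusted p = 0.049). None of these 10 was called against control IgG tumors. Over all genes tested, 4.82% were called lower in responders than in non-responders. These 10 topped a ranking of 13254 genes over 9 tumors. High values of r are thus built into the ranking, and r was not tested. Non-responder values also entered the ranking, so the calls against non-responders are not independent of it.

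The genes lie on 6 chromosomes, with Fam71f2, Fam19a1 and Wnt5b on chromosome 6 and Dach2, Taf7l and Magea8 on X. On chromosome 6, 2.31% of the tested genes were lower in responders than in both groups, and on X 3.11%, beside 2.87% overall. Within 500 kb of the 10 genes, 84 other genes were tested. Of these, 3 (3.57%, beside 4.82% of all genes) were called lower and 2 higher in responders than in non-responders, and 7 (8.33%, beside 5.3%) lower and 6 higher than in control IgG tumors, which is near the shares over all genes, with median log2 fold changes of 0.02 and −0.04. Prl had no tested neighbor in this window. The strongest of the lower neighbors was Cpeb1, the gene of a translation regulator (−0.99 ± 0.28 over non-responders, adjusted p = 0.0381, and −1.25 ± 0.26 over control IgG, adjusted p = 0.00736). Cpeb1 starts 4.93 kb past the 3′ end of Ap3b2, on the same strand. Suclg2, near Fam19a1, was also lower in both (−0.35 ± 0.10 and −0.54 ± 0.10, adjusted p = 0.0468 and 0.00312), and Ss18l2, near 1700048O20Rik, against non-responders (−0.62 ± 0.16, adjusted p = 0.0266). Tspan33, near Fam71f2, was higher in both (1.20 ± 0.33 and 1.22 ± 0.30, adjusted p = 0.0346 and 0.017). The count of 3 was 0 without 32R or 30R, 1 without 17R, 33R, 24L or 35L and 7 without 29L.

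**Figure D4:**
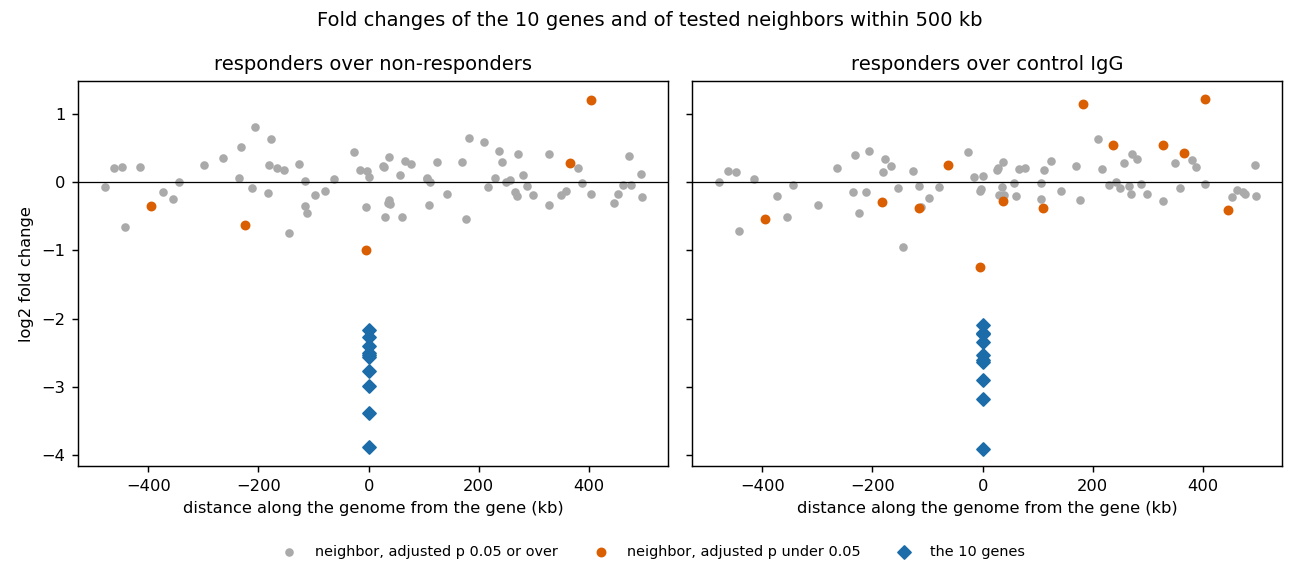
Log2 fold change of the 10 genes (blue diamonds at 0 kb) and of tested neighbors by their distance along the genome in kb, for responders over non-responders (left) and over control IgG (right), with neighbors at an adjusted p under 0.05 in orange. The 10 genes lie below −2 in both panels and no neighbor lies below −1.25.

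The tissues in which the 10 genes are known were checked with lists of other genes of those tissues. Of 16 male germ cell genes, 6 were at 0 in every tumor (Tex101, Mael, Piwil1, Stk31, Tnp1 and Acrv1) and 3 were tested, of which Tex14 was higher in responders than in control IgG tumors (1.56 ± 0.40, adjusted p = 0.0191) and none was lower. Of the anterior pituitary genes, Pou1f1, Cga and Fshb were among those at 0 in every tumor, and the single tested one, Chga, was higher in responders in both comparisons (1.50 ± 0.32 and 1.84 ± 0.30, adjusted p = 0.0139 and 0.0019). Of 9 tested neuron genes, Syt1 (−1.18 ± 0.26 and −1.66 ± 0.25, adjusted p = 0.0159 and 0.00121) and Nefl (−0.93 ± 0.26 and −1.07 ± 0.25, adjusted p = 0.038 and 0.0123) were lower in both comparisons and Gap43 was higher over non-responders (0.66 ± 0.14, adjusted p = 0.0139). All 12 skeletal muscle genes were tested and none was called. Their median log2 fold change was −0.22 over non-responders and −0.65 over control IgG. Their summed level was 30.7 to 494 CPM in responders, 115 to 827 in non-responders and 155 to 1445 in control IgG tumors. Standard errors ran from 0.62 for Des to 1.06 for Mb, so the lack of calls does not show that muscle RNA was alike. Of 6 tested osteoblast genes, Col1a1 was higher and Phex lower than in control IgG tumors (1.06 ± 0.31 and −0.46 ± 0.15, adjusted p = 0.0346 and 0.0492).

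Markers of other cells moved with the groups as well. Of 10 T cell markers, 9 were higher in responders than in non-responders and 10 than in control IgG tumors, and their summed level was 65.7 to 119 CPM in responders, 37.6 to 46.9 in non-responders and 29.6 to 62.1 in control IgG tumors. Of 9 tested B and plasma cell markers, 5 and 7 were higher, with sums of 71.1 to 166, 22.4 to 36.6 and 22.3 to 36.9 CPM. Of 10 pan-leukocyte markers, 7 and 6 were higher, and their sums of 1387 to 1784 CPM in responders, 1184 to 1254 in non-responders and 1105 to 1395 in control IgG tumors overlapped between the first and the last. Of 6 tested erythroid markers, 5 and 3 were lower in responders, with sums of 59.5 to 283 CPM in responders, 376 to 2068 in non-responders and 71.6 to 1911 in control IgG tumors. Of 10 macrophage markers 1 and 1 were higher, of 10 fibroblast markers 1 and 3 were higher and 0 and 1 lower, of 10 endothelial markers 0 and 3 were higher, and none of the 10 keratinocyte or 10 proliferation markers was called in either comparison. No matched marker of these 9 cell lists was at 0 in all tumors. The part of these cells in the levels of the 10 genes was not tested. With the trend of the fold changes on gene length removed, the estimates for the 10 genes were −3.76 to −1.97 over non-responders.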

How the data were processed

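RNA of 14 whole CT26 tumors had been sequenced, and the labels gave group and tumor number. The authors used STAR and RSEM with build mm10. Their deposited expected counts estimate fragments per gene and are not normalized, and their deposited TPM values are also divided by gene length and scaled per library. The deposited FPKM values were not used. Ensembl IDs were matched to GENCODE release M21 (53706 of 53801). Expected counts were rounded, filtered with filterByExpr, normalized by TMM and tested with edgeR 4.0.16 (glmQLFit, glmQLFTest, all 3 groups in 1 model, R 4.3.3) with Benjamini-Hochberg adjustment over all 16287 genes and a threshold of 0.05. The script was tested on simulated data. Each tumor counted as a replicate, and tumors that share a mouse may share part of their spread. Counting limits cover counting error only: 3 counts, the floor used here, were 0.0596 to 0.095 CPM. Pairs of genes were compared in log2 CPM (prior count 2) by an exact permutation test over 9 tumors (scipy 1.17.1), two-sided.

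Named genes were all 10 genes, the genes of 25 family, tissue and cell lists, called neighbors within 500 kb, and the 10 genes most like the mean of the 10. The 10 genes and all lists were chosen with earlier results of these data known, and 1 listed gene is not reported here. Alternatives were DESeq2 1.42.0, limma 3.58.1, other scalings and filters, 1 tumor per mouse and leaving out each tumor.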

Additional observations from a re-analysis of the deposited data

Results flagged for a closer look

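Among the 30 sets of tumors examined (10 genes in 3 groups), 2 held a tumor far from the rest by Dixon's criterion, and chance flags about 1 set in 20. Ap3b2 in responders was 0.327 CPM in 35L and 0.146 to 0.185 CPM in the other 4, and its gap was 0.783 of the range. Taf7l in non-responders was 1.77 CPM in 33R and 1.16 to 1.25 CPM in the other 3, a gap of 0.857 of the range.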

How the results depend on the processing

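The 10 genes were chosen on the comparisons with responders, so how often they stay called is a description and no support. Against control IgG, the 10 fold changes kept their direction and call in all 236 fits (96 alternatives and 140 that left out 1 tumor), and Prl moved to −1.93 with 1 library per mouse. Against non-responders, 4 of 95 alternatives and 5 of 140 fits that left out a tumor ended a call without changing the sign: Prl (−1.79), Fam19a1 (−1.60) and Magea8 (−1.93) with 1 library per mouse, Fam19a1 on log2(TPM + 1) (−0.18), Prl without 32R, 33R, 24L or 30R (−2.21 to −1.90) and Fam19a1 without 33R (−1.73). Of the uncalled differences between non-responders and control IgG, the sign turned with 1 library per mouse for Ostn (−0.20), Wnt5b (−0.33), Taf7l (−0.0377) and Magea8 (−0.19), and on log2(TPM + 1) for Ap3b2 (−0.0293), Wnt5b (−0.0413) and Magea8 (−0.00356). It also turned as single tumors were left out for 1700048O20Rik (−0.29 to 0.26), Ap3b2 (−0.10 to 0.35), Ostn (−0.0555 to 0.50), Wnt5b (−0.41 to 0.44), Prl (−0.57 to 0.0412) and Magea8 (−0.24 to 0.50). Dach2, Ostn, Prl and Fam19a1 did not pass a filter of at least 1 CPM in at least 4 tumors and have no value there.

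The calls between responders and non-responders numbered 1612, and 2634 with DESeq2, 2973 with limma-voom in which mouse was random, 689 with only these groups in the fit and 520 with 1 library per mouse. Leaving out 1 tumor gave 569 to 1978, with 615 without 32R, 793 without 33R, 569 without 24L and 686 without 30R. Against control IgG the range was 1190 to 3385, with 1190 without 20R, 3385 without 33R, 1192 without 24L and 1387 without 30R. Between non-responders and control IgG, DESeq2 called 18 and the fit without a filter 3, and leaving out 1 tumor gave 0 to 5, with 5 without responder 35L.

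Of the 8 correlated pairs, 2 were left on log2(TPM + 0.1) and 0 with 1 tumor per mouse, and leaving out 1 tumor gave 0 to 15. The 3 lower neighbors became 1 within 200 kb, 7 within 1 Mb, 11 with DESeq2 and 6 with the length trend removed, and 0 to 7 when 1 tumor was left out. The causes were not tested. No paired analysis was possible because no mouse carried tumors of more than 1 group. Low counts also limit the responder values, since no responder had over 62 counts of any of the 10 genes.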

Other observations

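None of the 10 genes lies on chromosome 1, but 94 of the 467 genes called lower in responders than in both other groups do. They are 9.3% of the 1011 tested genes of that chromosome, the highest share of any. This was seen after the values were known and was not tested. In the first 100 Mb of chromosome 1, 72 of 482 tested genes (14.9%) were lower in both comparisons, and in the rest 22 of 529 (4.16%). The median log2 fold change over the 482 genes was −0.15 for responders over non-responders, −0.17 for responders over control IgG and −0.00056 for non-responders over control IgG, and over the 529 genes it was 0.05, 0.00119 and −0.02. The median difference of the 482 genes from their control mean was −0.15 in 24L, −0.16 in 26R, −0.21 in 30L, −0.21 in 30R and −0.16 in 35L. Non-responders 32R, 33L and 33R were at −0.01, 0.03 and 0.03, and control IgG tumors between −0.05 and 0.05. Non-responder 29L, which had the lowest level of 7 of the 10 genes among the tumors outside the responder group, was at −0.10.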
